A study of Mus musculus with 8 samples.

Results

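The mouse Cyp2c genes encode cytochrome P450 monooxygenases of the endoplasmic reticulum, here the 10 members Cyp2c29, Cyp2c37, Cyp2c38, Cyp2c39, Cyp2c40, Cyp2c50, Cyp2c54, Cyp2c55, Cyp2c69 and Cyp2c70. They were taken as the probes whose RefSeq accession belongs to one of these symbols, which gave 12 probes for 10 of 10 members, with 2 probes each for Cyp2c50 and Cyp2c55. Of the members, 9 passed the filter on dim probes and were among the 26556 genes and unnamed transcripts tested. Cyp2c39 did not pass it. Another 5 Cyp2c genes had a probe (Cyp2c23, Cyp2c65, Cyp2c66, Cyp2c67 and Cyp2c68) and are given where they lie beside a member.

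Whole liver was hybridised on 1-colour Agilent arrays in 4 groups of 2 arrays, from animals aged 10 to 11 weeks. The groups were male liver-specific Bcl6 knockout, male wild type, female liver-specific Bcl6 knockout and female wild type. Bcl6 encodes a zinc-finger repressor of transcription. The promoter or cell type that drove the deletion, the strain and the number of animals behind an array are not given in the sources used here. The p-values therefore reflect the spread among these arrays alone, and that spread may be technical. The comparisons ask how loss of Bcl6 bears on the difference between male and female liver, per the title of the series.

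CYP2C enzymes draw electrons from cytochrome P450 reductase and oxidise fatty acids, steroids and drugs. Several of the mouse enzymes are arachidonic acid epoxygenases, which make epoxyeicosatrienoic acids that soluble epoxide hydrolase then hydrolyses. In rodent liver a number of Cyp2c genes are known to differ between the sexes under the pattern of growth hormone release, and others to respond to the drug-sensing receptors CAR and PXR.

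The start regions of the genes show how close some members are. RefSeq promoters (GRCm38.p6, from 250 bases before to 50 after the start) were found for 9 of 10 members, 10 promoters in all. Cyp2c54 was not matched. The 4 printed here are those of the members past the test's threshold in a knockout comparison, since the first and second fell together in the results below and the last moved the other way in males. The windows are chr19:40089429-40089728 on the + strand (Cyp2c50), chr19:39992174-39992473 on the + strand (Cyp2c37), chr19:39006769-39007068 on the + strand (Cyp2c55) and chr19:39886720-39887019 on the - strand (Cyp2c69). Capitals mark a match to CAAAGTCCA, the letters searched for HNF4A, a nuclear receptor of hepatocytes.
Cyp2c50: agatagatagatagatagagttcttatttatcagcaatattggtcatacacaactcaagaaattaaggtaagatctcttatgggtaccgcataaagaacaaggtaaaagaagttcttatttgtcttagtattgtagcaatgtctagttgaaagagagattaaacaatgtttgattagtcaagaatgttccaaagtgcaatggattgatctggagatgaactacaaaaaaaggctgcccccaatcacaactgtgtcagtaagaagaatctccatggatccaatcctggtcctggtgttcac
Cyp2c37: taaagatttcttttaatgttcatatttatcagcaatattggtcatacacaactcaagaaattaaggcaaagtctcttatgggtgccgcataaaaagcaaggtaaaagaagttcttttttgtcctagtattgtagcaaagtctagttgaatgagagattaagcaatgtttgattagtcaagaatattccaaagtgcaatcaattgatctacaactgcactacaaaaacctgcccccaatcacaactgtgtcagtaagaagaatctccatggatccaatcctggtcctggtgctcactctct
Cyp2c55: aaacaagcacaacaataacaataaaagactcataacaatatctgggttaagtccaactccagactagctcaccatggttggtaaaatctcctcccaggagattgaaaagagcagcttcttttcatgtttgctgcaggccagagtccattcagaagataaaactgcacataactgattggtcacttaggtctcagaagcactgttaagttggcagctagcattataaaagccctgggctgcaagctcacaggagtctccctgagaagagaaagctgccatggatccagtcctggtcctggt
Cyp2c69: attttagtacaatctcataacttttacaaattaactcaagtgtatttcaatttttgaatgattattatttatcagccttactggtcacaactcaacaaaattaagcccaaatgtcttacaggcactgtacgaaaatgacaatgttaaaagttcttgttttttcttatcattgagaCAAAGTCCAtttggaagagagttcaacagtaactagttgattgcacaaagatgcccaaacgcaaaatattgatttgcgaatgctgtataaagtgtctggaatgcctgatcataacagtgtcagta

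The promoters were aligned end to end, and identity is the share of all alignment positions, with gaps counted as differences. It was 86.6% for Cyp2c37 and Cyp2c50, the highest of the pairs of members compared, followed by Cyp2c40 and Cyp2c69 at 80.9%. Windows set from unlike starts add gaps, so this order does not rank how close the shared bases are. Cyp2c55 reached 55.1% with Cyp2c50. The letters CAAAGTCCA stood in 3 of 10 member promoters, those of Cyp2c40, Cyp2c69 and Cyp2c70, against 0.475% of 32851 mouse promoters. They also stood in the promoters of Cyp2c65, Cyp2c67 and Cyp2c68. Promoters as alike as those of Cyp2c40 and Cyp2c69 are not independent, and whether the members hold more of these matches was not tested. The first letter of the match lay at -45 from the start in Cyp2c40, -75 in Cyp2c69 and -64 in Cyp2c70. In the other Cyp2c genes it lay at -77 in Cyp2c68, -116 in Cyp2c65 and -125 in Cyp2c67. The core shared by STAT5 and BCL6 sites, TTCNNNGAA, stood in 0 of 10 member promoters against 8.30% of all, and so did TTCCTNGAA, which is contained in it, against 1.59%. Direct repeats of nuclear receptors, with spacings of 4 and 1, stood in 0 of 10 against 0.0122% and 0.0396%. Both strands were searched, and an absent match says only that these letters are not in this window.

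Each array held 59305 spots other than controls, of which 33677 to 36459 were well above background. Precision is limited by having 2 arrays a group. All lay on 1 slide with 1 scan time. Females filled one row of it and males the other, and an effect of row cannot be told apart from one of sex. Levels are log2 signals relative to each array's 75th percentile, and no probe's level is set against another's. Bcl6 was read by 1 probe whose place relative to the deletion is not given. It had 4.49 and 4.01 in males labelled knockout against 3.97 and 2.91 in male wild type, and 1.62 and 4.41 in females labelled knockout against 2.95 and 0.86 in female wild type. It was not lower in either sex (limma, 0.81 in males with adjusted p = 0.676, 1.11 in females with adjusted p = 0.556), so the knockout arrays are named by their label throughout. The label whole liver was checked against 15 hepatocyte markers with a probe, all well above background on all 8 arrays, with a mean level of 8.72 to 8.75 in males labelled knockout, 8.71 in male wild type, 8.61 to 8.79 in females labelled knockout and 8.53 to 8.63 in female wild type.

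**Figure D1:**
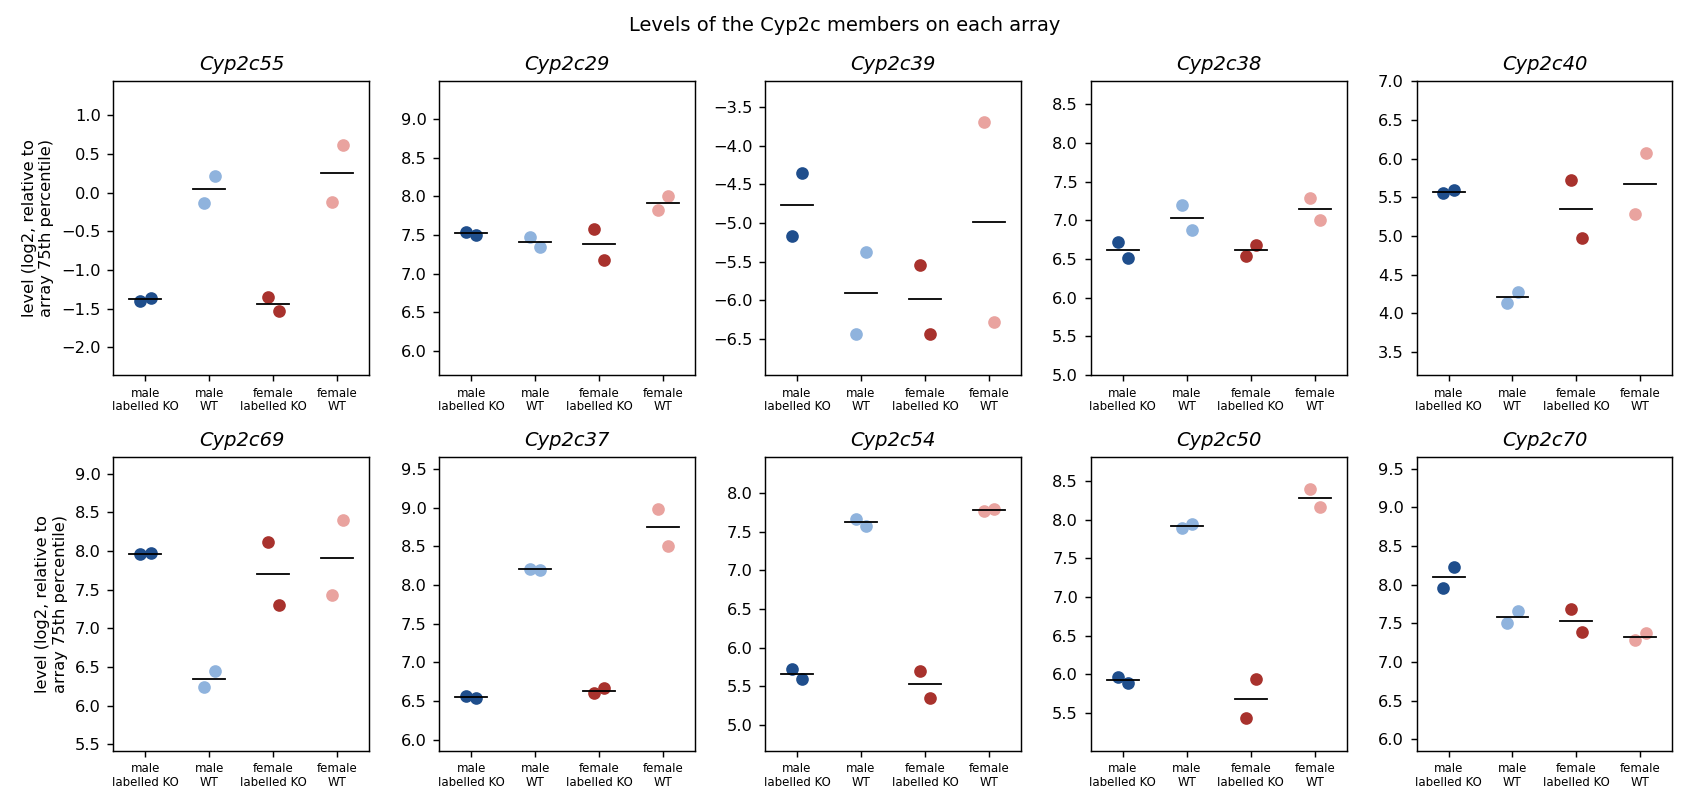
Level of each of the 10 members on each array (log2 relative to the array's 75th percentile), genes in their order along chromosome 19, 1 panel a gene with its own axis of equal length. Points are arrays and bars are means of 2. Cyp2c37, Cyp2c54, Cyp2c50 and Cyp2c55 lie lower in both groups labelled knockout, Cyp2c40 and Cyp2c69 are lowest in male wild type, and Cyp2c39 was well above background on 1 of 8 arrays.

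Along chromosome 19 the 15 protein-coding Cyp2c genes of the reference list run in the order Cyp2c55, Cyp2c65, Cyp2c66, Cyp2c29, Cyp2c39, Cyp2c38, Cyp2c67, Cyp2c68, Cyp2c40, Cyp2c69, Cyp2c37, Cyp2c54, Cyp2c50, Cyp2c70 and Cyp2c23. In males labelled knockout, 5 of the 9 members tested passed the threshold, 4 lower (Cyp2c37, Cyp2c50, Cyp2c54 and Cyp2c55) and 1 higher (Cyp2c69), against 10.7% of all genes tested in either direction, 4.93% lower and 5.77% higher. In females labelled knockout 4 passed, the same 4 lower and 0 higher, against 5.93% of all in either direction, 2.45% lower and 3.48% higher. The median difference over the 9 was -0.42 in males, where that of all genes was -0.04, and -0.54 in females, where that of all genes was 0.00. The arrays of the 2 groups did not overlap for 9 of 9 members in males, against 62.0% of all genes, and for 7 of 9 in females, against 55.4%. In whole tissue, fewer cells of a type and less RNA per cell cannot be told apart.

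The 3 neighbours Cyp2c37, Cyp2c54 and Cyp2c50 fell in both sexes, by 3.15- to 6.07-fold. Cyp2c37 is an arachidonic acid oxygenase, and Cyp2c50 and Cyp2c54 are epoxygenases. Cyp2c37 had 6.56 and 6.54 in males labelled knockout against 8.21 and 8.20 in male wild type, and 6.60 and 6.67 in females labelled knockout against 8.98 and 8.51 in female wild type. The 4 arrays labelled knockout lay between 6.54 and 6.67, below all wild-type arrays. Males differed by -1.65 ± 0.16 (SE), 3.15-fold lower (limma, adjusted p = 0.00334). Females differed by -2.11 ± 0.16, 4.31-fold lower (adjusted p = 0.00217). Cyp2c54 had 5.73 and 5.60 in males labelled knockout against 7.66 and 7.58 in male wild type, and 5.70 and 5.35 in females labelled knockout against 7.77 and 7.79 in female wild type. Its groups lay apart in both sexes, with differences of -1.95 ± 0.14 in males (3.86-fold lower, adjusted p = 0.00106) and -2.25 ± 0.14 in females (4.76-fold lower, adjusted p = 0.00112). All 3 genes kept their calls in both sexes in each of 8 fits that left out 1 array.

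Cyp2c50 had the most negative difference of the members in both sexes, though in males Cyp2c54 was close to it, at -1.95 ± 0.14. On the probe that stands for Cyp2c50, the level was 5.97 and 5.89 in males labelled knockout against 7.89 and 7.94 in male wild type, and 5.43 and 5.94 in females labelled knockout against 8.40 and 8.17 in female wild type. The difference was -1.99 ± 0.18 in males (3.96-fold lower, adjusted p = 0.00272) and -2.60 ± 0.18 in females (6.07-fold lower, adjusted p = 0.00161). A second probe, assigned to another RefSeq transcript of Cyp2c50, read -1.94 and -2.34 in males labelled knockout against 1.13 and 1.32 in male wild type, and -2.83 and -2.69 in females labelled knockout against 1.94 and 1.17 in female wild type. It was well above background on all 8 arrays. Tested with every probe on its own, it gave -3.37 ± 0.27 in males (10.3-fold lower, adjusted p = 0.00167) and -4.31 ± 0.27 in females (19.9-fold lower, adjusted p = 0.00121). The 95% intervals of the 2 probes did not overlap in either sex: -4.02 to -2.71 for the second and -2.43 to -1.54 for the first in males, and -4.97 to -3.66 against -3.05 to -2.15 in females. The sequences of the probes were not used here, and how far each also binds transcripts of near-identical members was not tested.

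Cyp2c55, an arachidonic acid hydroxylase known from mouse colon, was also lower in both sexes. On the probe that stands for it, Cyp2c55 had -1.40 and -1.36 in males labelled knockout against -0.13 and 0.22 in male wild type, and -1.35 and -1.53 in females labelled knockout against -0.12 and 0.62 in female wild type. The groups did not overlap. The difference was -1.42 ± 0.26 in males (2.68-fold lower, adjusted p = 0.0234) and -1.69 ± 0.26 in females (3.22-fold lower, adjusted p = 0.0208). With normexp background correction it shrank to -0.89 in males and -1.06 in females, still past the threshold. With no filter on dim probes Cyp2c55 lost its call in both sexes (adjusted p = 0.0658 in males and 0.0642 in females), and in a fit of the female arrays alone it lost the female one (0.0963). Its other probe had -2.67 and -2.56 in males labelled knockout against -0.94 and -1.33 in male wild type, and -2.14 and -2.79 in females labelled knockout against -1.82 and -1.18 in female wild type. The second probe passed in males (-1.48 ± 0.30, adjusted p = 0.0326) and did not pass in females (-0.97 ± 0.30, adjusted p = 0.120). The call in males held without either female wild-type array and was lost without any of the other 6 (adjusted p up to 0.109), and the call in females was lost without any 1 of the 4 arrays labelled knockout (up to 0.0928).

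**Figure D2:**
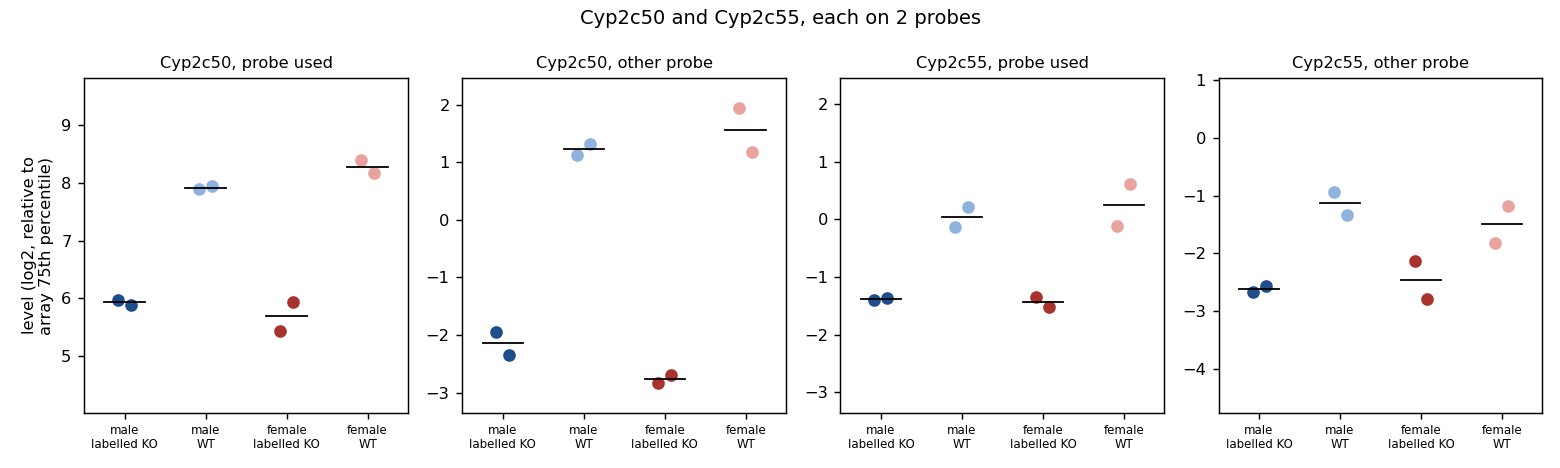
Level on each array of the 2 probes for Cyp2c50 and the 2 for Cyp2c55 (log2 relative to the array's 75th percentile), axes of equal length. Points are arrays and bars are means of 2. For Cyp2c50 the other probe spans a wider range between the groups, from -2.83 to 1.94, than the probe used, from 5.43 to 8.40.

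Cyp2c40 and Cyp2c69, which lie next to each other, did not pass as lower in either sex. Cyp2c40 makes a hydroxylated arachidonic acid. Cyp2c69 had 7.96 and 7.97 in males labelled knockout against 6.24 and 6.45 in male wild type, and 8.12 and 7.30 in females labelled knockout against 7.43 and 8.40 in female wild type. Both males labelled knockout were above both wild-type males, and lay between the 2 arrays of each female group. In males the difference was 1.62 ± 0.38, 3.06-fold higher, which passed narrowly (limma, adjusted p = 0.0494). The female difference was -0.21 ± 0.38 (adjusted p = 0.774, 95% interval -1.13 to 0.72). Cyp2c40 showed the same layout, with 5.56 and 5.59 in males labelled knockout against 4.14 and 4.28 in male wild type, and 5.73 and 4.98 in females labelled knockout against 5.28 and 6.07 in female wild type. Its difference of 1.36 ± 0.33 in males missed the threshold (adjusted p = 0.0523), and in females it was -0.32 ± 0.33 (adjusted p = 0.584, 95% interval -1.12 to 0.48).

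The male result for this pair sits at the threshold. Under quantile and median scaling Cyp2c69 missed it (adjusted p = 0.0578 and 0.0547), as it did with no filter on dim probes (0.119). The call of Cyp2c69 held in 2 of 8 fits that left out 1 array, those without a female wild-type array, and was lost without either female array labelled knockout or any of the 4 male arrays (adjusted p up to 0.178). In a fit of the male arrays alone both genes passed (adjusted p = 0.0107 for Cyp2c69 and 0.0119 for Cyp2c40). The SD of Cyp2c69 was 0.01 in males labelled knockout, 0.15 in male wild type, 0.58 in females labelled knockout and 0.69 in female wild type, and the fit over 8 arrays shares 1 estimate of the spread.

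The flanking genes Cyp2c67 and Cyp2c68 had the same layout. Cyp2c68 had 7.98 and 7.98 in males labelled knockout against 6.18 and 6.40 in male wild type, and 8.04 and 7.34 in females labelled knockout against 7.43 and 8.49 in female wild type. It passed in males (1.69 ± 0.38, 3.23-fold higher, adjusted p = 0.0435) but not in females (-0.27 ± 0.38, adjusted p = 0.699). As for Cyp2c69, the male call held in 2 of 8 fits that left out 1 array, those without a female wild-type array, and was lost in the other 6 (adjusted p up to 0.161). It was also lost with quantile scaling (0.0555), with no filter on dim probes (0.107) and with the replicate block (0.0699). Cyp2c67 had 8.23 and 8.25 in males labelled knockout against 6.68 and 6.89 in male wild type, with a difference of 1.46 ± 0.37 that missed the threshold (adjusted p = 0.0618). In females the 4 genes also departed together within a group. From replicate 1 to replicate 2, which have no order, they differed by -0.83 to -0.71 in females labelled knockout and by 0.78 to 1.05 in female wild type. Whether the 4 probes read separate transcripts was not tested.

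**Figure D3:**
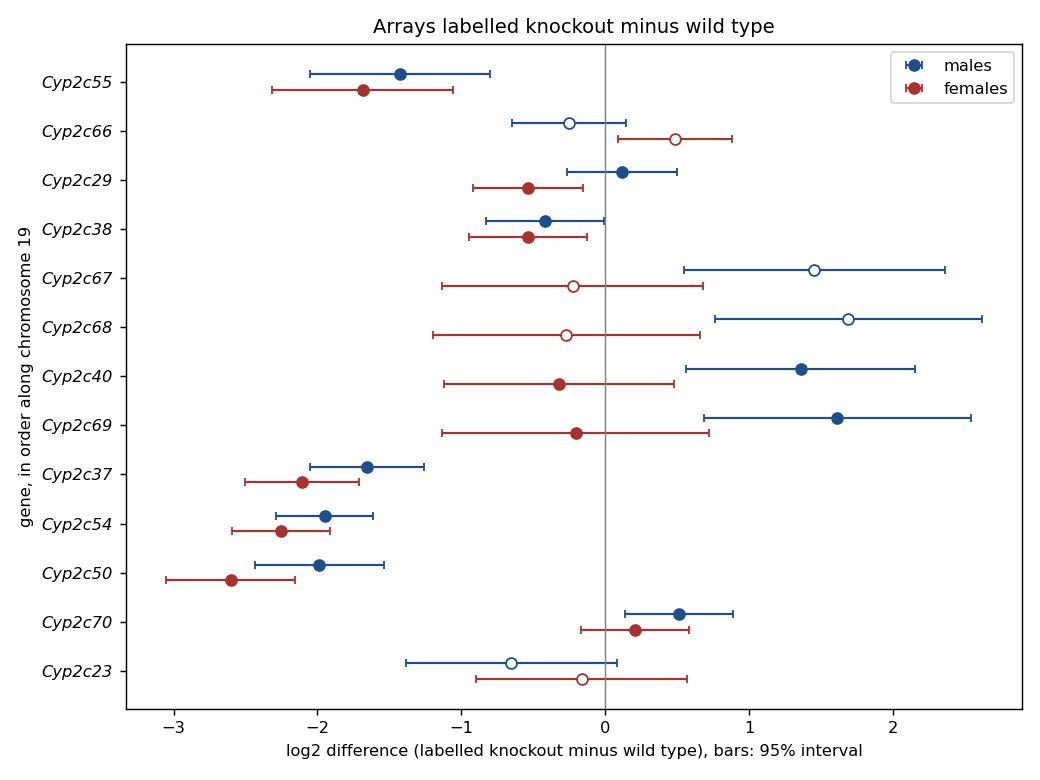
Difference between arrays labelled knockout and wild type (log2, points) with 95% intervals (bars) in males and females for the 9 members tested (filled) and 4 other Cyp2c genes (open), in order along chromosome 19. Cyp2c37, Cyp2c54 and Cyp2c50 lie at -2.60 to -1.65 in both sexes, while Cyp2c67, Cyp2c68, Cyp2c40 and Cyp2c69 lie at 1.36 to 1.69 in males and at -0.32 to -0.21 in females.

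Cyp2c70, Cyp2c29 and Cyp2c38 did not pass in either sex, though alternatives called Cyp2c70 in males and Cyp2c29 in females. Cyp2c70, which hydroxylates bile acids to muricholic acids in mice, had 7.96 and 8.23 in males labelled knockout against 7.51 and 7.66 in male wild type, and 7.68 and 7.39 in females labelled knockout against 7.28 and 7.38 in female wild type. Both groups labelled knockout lay above their wild type, by 0.52 ± 0.15 in males (adjusted p = 0.0928) and 0.21 ± 0.15 in females (adjusted p = 0.447). In males it passed with normexp background correction (adjusted p = 0.0339) and with trend and robust moderation (0.0389). Cyp2c38, an epoxygenase, had 6.72 and 6.51 in males labelled knockout against 7.20 and 6.87 in male wild type, and 6.54 and 6.68 in females labelled knockout against 7.29 and 7.00 in female wild type. Its differences were -0.42 ± 0.17 in males (adjusted p = 0.175) and -0.54 ± 0.17 in females (adjusted p = 0.123).

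Cyp2c29, an epoxygenase abundant in mouse liver, had 7.54 and 7.50 in males labelled knockout against 7.47 and 7.34 in male wild type, and 7.58 and 7.18 in females labelled knockout against 7.82 and 8.0 in female wild type. The difference was 0.12 ± 0.16 in males (adjusted p = 0.684) and -0.54 ± 0.16 in females (adjusted p = 0.107), where it passed with trend and robust moderation (0.0453). Cyp2c39, a member known for retinoic acid and arachidonic acid oxidation, was not well above background on 7 of 8 arrays. It had -5.17 and -4.36 in males labelled knockout, -6.43 and -5.38 in male wild type, -5.54 and -6.44 in females labelled knockout, and -3.69 and -6.28 in female wild type, and no fold is given.

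Between the sexes, 0 of 9 members passed the threshold in wild type (limma, 4 at an unadjusted p under 0.05) or in arrays labelled knockout (1 at an unadjusted p under 0.05). Of all genes, 0.964% passed in wild type (0.603% higher in males and 0.362% lower) and 0.0828% in the arrays labelled knockout (0.0603% higher in males and 0.0226% lower). In wild type the arrays of the 2 sexes did not overlap for 7 of 9 members, against 47.7% of all genes, and in the arrays labelled knockout for 2 of 9, against 41.3%. The largest gaps in wild type were those of Cyp2c69, at -1.57 ± 0.38 males minus females (adjusted p = 0.124), and Cyp2c40, at -1.46 ± 0.33 (adjusted p = 0.110). In the arrays labelled knockout Cyp2c69 had a gap of 0.25 ± 0.38 and Cyp2c40 one of 0.22 ± 0.33 (adjusted p = 0.972 for both), with the sexes overlapping. Cyp2c37 and Cyp2c29 were at -0.54 ± 0.16 and -0.51 ± 0.16 in wild type (adjusted p = 0.182 and 0.188) and at -0.09 and 0.14 in the arrays labelled knockout. Cyp2c70 had its larger gap in the arrays labelled knockout, 0.56 ± 0.15 (adjusted p = 0.680), against 0.25 ± 0.15 in wild type (adjusted p = 0.437).

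Whether the knockout difference itself differed between the sexes was tested as an interaction, the male difference minus the female one. It passed for 0 of 9 members (limma, 3 at an unadjusted p under 0.05), against 0.192% of all genes (0.0904% above 0 and 0.102% below). The largest interactions were 1.82 ± 0.54 for Cyp2c69 (adjusted p = 0.425) and 1.68 ± 0.46 for Cyp2c40 (adjusted p = 0.384), while Cyp2c50 had 0.61 ± 0.26 (adjusted p = 0.605), Cyp2c37 0.45 ± 0.23 (adjusted p = 0.675) and Cyp2c54 0.30 ± 0.20 (adjusted p = 0.756). A difference between the sexes in the response of any member was thus not detected with 2 arrays a group, and the interval for Cyp2c69 ran from 0.51 to 3.13.

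**Figure D4:**
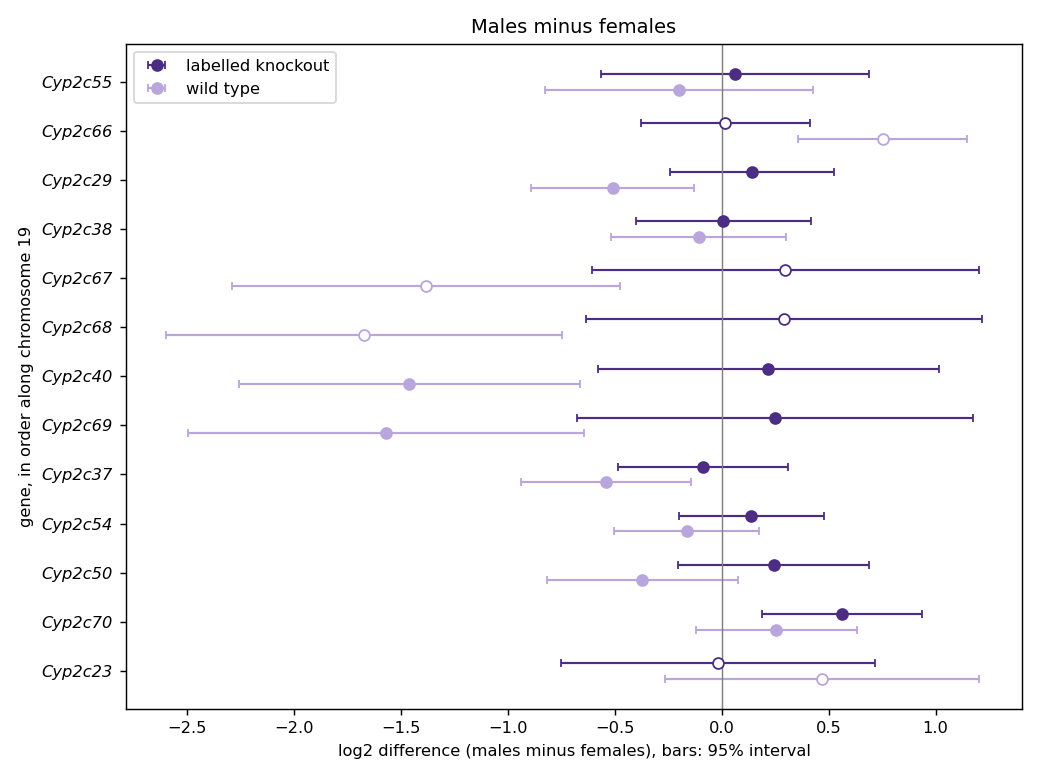
Difference between males and females (log2, points) with 95% intervals (bars) in the arrays labelled knockout and in wild type for the 9 members tested (filled) and 4 other Cyp2c genes (open). In wild type Cyp2c40 and Cyp2c69 lie at -1.46 and -1.57, in the arrays labelled knockout at 0.22 and 0.25.

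The counts of genes in the lists below stand beside the shares of all genes called. These were 10.7% in males (5.77% higher, 4.93% lower) and 5.93% in females (3.48% higher, 2.45% lower). Of 16 tested genes that release arachidonic acid or make and handle its epoxides, 4 were lower and 1 higher in males labelled knockout, with the same 5 names in females. The lower ones were the epoxygenases Cyp2j5, Cyp2j8 and Cyp2j13 and the microsomal epoxide hydrolase Ephx1, and the higher one was Pla2g15, a lysosomal phospholipase. Cyp2j5 had 5.0 and 4.84 in males labelled knockout against 5.73 and 5.83 in male wild type, and 5.09 and 4.79 in females labelled knockout against 5.58 and 5.65 in female wild type. It fell by 0.86 in males (adjusted p = 0.0156) and by 0.67 in females (adjusted p = 0.0451). Ephx2, the soluble epoxide hydrolase, did not pass in males (-0.49 ± 0.14, adjusted p = 0.0825) or females (-0.01 ± 0.14, adjusted p = 0.971). The list's median was -0.27 in males and -0.14 in females. Of 12 tested genes of other arachidonate branches, 2 were higher in males (Lta4h, Ptgds) and 1 higher and 1 lower in females (Lta4h, Hpgd).

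Of 10 genes tested that pass electrons to P450 enzymes or handle heme, 2 were higher in both sexes and 0 were lower. The 2 higher were Cyb5r3 (cytochrome b5 reductase) and Hmox1 (heme oxygenase, which breaks heme down). Alas1, which acts in heme synthesis, had -1.79 ± 0.56 in males and -2.05 ± 0.56 in females (limma, adjusted p = 0.104 and 0.0928). Por, the P450 reductase, had -0.04 ± 0.14 in males (adjusted p = 0.880) and -0.29 ± 0.14 in females (adjusted p = 0.252). Among 20 nuclear receptors and factors that act on Cyp2c genes, 4 were lower in males (Cebpb, Foxa1, Nr1h4, Nr1i2) and 4 in females (Cebpb, Nr1h4, Nr1i3, Rxra), with Cux2 higher in both. Over all genes, 4.93% were called lower in males and 2.45% in females. Cux2, a repressor known as female-biased in liver, was not well above background in male wild type and was at least 109-fold higher in males labelled knockout (adjusted p = 0.000175). It rose 3.15-fold in females (adjusted p = 0.0240). Hnf4a had -0.07 ± 0.23 in males and -0.35 ± 0.23 in females (adjusted p = 0.878 and 0.391). Nr1i3, which encodes CAR, had -1.03 ± 0.19 in females (adjusted p = 0.0368) and 0.14 ± 0.19 in males (adjusted p = 0.685).

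Of 20 other CAR and PXR targets tested, 5 were higher (Akr1b7, Aldh1a7, Cyp2b9, Cyp2b10, Cyp2b13) and 2 lower (Abcc3, Ces2a) in males. In females 1 was higher (Aldh1a7) and 3 lower (Abcc3, Cyp2b13, Gstt1). Over all genes, 10.7% were called in males and 5.93% in females. Aldh1a7 had 2.07 in males and 2.21 in females, and Abcc3 had -2.38 and -2.70. In wild type, 4 of the 20 were lower in males than in females (Akr1b7, Cyp2b9, Cyp2b10, Cyp2b13), against 0.362% of all genes. Cyp2b13 had 2.25 and 1.89 in males labelled knockout against -4.10 and -3.75 in male wild type, and 2.20 and 2.14 in females labelled knockout against 7.10 and 6.10 in female wild type. It was thus higher in males (5.99 ± 0.33, adjusted p = 0.000454) and lower in females (-4.43 ± 0.33, adjusted p = 0.00193), and the 2 groups labelled knockout overlapped. Genes of pericentral hepatocytes, the zone around the central vein, were 3 higher and 2 lower of 16 in males and 2 higher and 2 lower in females. In this list Slc1a2 rose by 2.18 in males (limma, adjusted p = 0.000769) and by 1.47 in females (adjusted p = 0.00519). Glul, the glutamine synthetase of this zone, fell by 0.80 in males (adjusted p = 0.0248) and by 1.13 in females (adjusted p = 0.0133). Periportal genes were 1 higher and 4 lower of 15 in males and 1 higher and 2 lower in females.

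**Figure D5:**
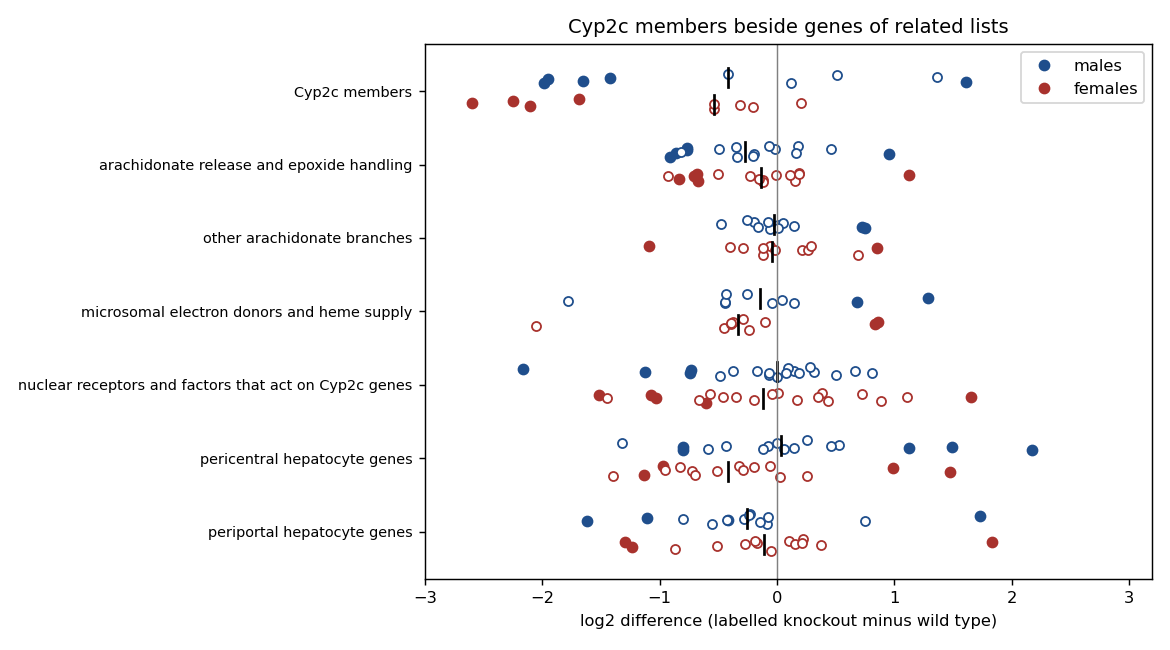
Differences between arrays labelled knockout and wild type (log2) of the genes in 7 lists, 1 point a gene in males (upper) and females (lower); filled points passed the threshold and black lines are medians of the points shown. Genes with no array of the lower group well above background are left out. The members that passed and fell, a part of their list picked by that fall, lie at -1.42 to -2.60. The lowest of the epoxide handling genes lies at -0.93. The medians of the 2 whole lists were -0.42 and -0.27 in males, and -0.54 and -0.14 in females.

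Markers of other liver cells moved in the same comparisons, in which 10.7% of all genes were called in males and 5.93% in females. B and plasma cell markers had a mean level of -1.07 to -1.03 in males labelled knockout against -2.11 to -1.87 in male wild type, and -1.20 to -1.06 in females labelled knockout against -1.88 to -1.70 in female wild type. Of the 8, 4 were higher in males and 2 in females. Endothelial markers were higher for 3 of 10 in males and 1 of 10 in females, with a mean of 2.10 to 2.15 in males labelled knockout against 1.57 to 1.63 in male wild type, and 2.05 to 2.07 in females labelled knockout against 1.87 to 1.91 in female wild type. Stellate cell markers were higher for 4 of 10 in males and lower for 1 of 10 in females. Their mean level was higher in both sexes. It was 1.48 to 1.54 in males labelled knockout against 1.08 to 1.23 in male wild type. In females it was 1.58 to 1.68 in the arrays labelled knockout against 1.40 to 1.48 in wild type. Macrophage (12 tested), T and NK cell (8), neutrophil (6), cholangiocyte (6) and adipocyte (4) markers had 0 passing in either sex, acinar markers 1 of 4 lower in males, and gut markers 1 of 2 lower in females. Mean levels of some of these lists also lay apart. In males T and NK cell markers had -1.45 to -1.30 labelled knockout against -1.86 to -1.57 in wild type. Macrophage markers in males had 2.53 to 2.80 against 2.49 to 2.50. Neutrophil markers in females had -1.74 to -1.49 against -1.96 to -1.89, and were also higher in males. Adipocyte, acinar and gut marker means were lower in males labelled knockout. Cholangiocyte means overlapped in both sexes. The part of these shifts in the Cyp2c differences was not tested. Of the hepatocyte markers, 1 of 15 was lower in males (Ttr), and in females 1 was lower (Ttr) and 1 higher (Hpd).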

How the data were processed

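RNA from whole mouse liver was hybridised on 1-colour (Cy3) Agilent arrays, 8 arrays in 4 groups of 2 taken from the sample titles. The deposited intensity values were made, per the file headers, by the Agilent software Feature Extraction 11.5.1.1 as processed signals, whereas version 9.1.3.1 stands in the submitters' processing notes. The deposited table of log2 values equalled the log2 of those signals minus 1 constant per array, within 0.01 for 100% of 56305 probes.

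From these, spots of a probe were averaged without outlier spots, log2 was taken and each array's 75th percentile over 56605 probes subtracted. Of the probes, 32994 were named with 22911 symbols through RefSeq accessions (GRCm38.p6), and since the grid is annotated on mm9 that list gave only names and neighbour order. Kept were probes that stood well above background on the 2 arrays of any group, and the brightest kept probe stood for a gene. A model of 4 group means was fitted across the 8 arrays (limma 3.58.1 under R 4.3.3, moderated by eBayes), with Benjamini-Hochberg adjustment over 26556 and a threshold of 0.05. The fit was tested on simulated data. Where no array of the lower group was well above background, the fold is a lower bound, with each such value raised to the array's lowest signal well above background. Promoters were aligned end to end with Biopython 1.88 (match 1, mismatch -1, gap opening -3, gap extension -0.5). Tables came from pandas 2.3.3 and numpy 2.4.6 (Python 3.11.15), and plots from matplotlib 3.10.9.

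The members, lists and motifs were chosen with earlier results of these data known. Named were all members, other Cyp2c genes, Bcl6, up to 3 genes of each other list with the smallest adjusted p, and the gene most correlated with each member that passed. Ephx2, Por, Alas1, Hnf4a, Nr1i3 and some of the genes behind counts of 5 or fewer were named after their values were seen. Other genes behind such counts are not named. Alternatives were normexp background correction on median signals (mean signals were not in the files used here), quantile and median scaling, no filter, other uses of several probes, the arrays compared alone, the replicate number as a block, the deposited table, trend and robust moderation, and each array left out.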

Additional observations from a re-analysis of the deposited data

Results flagged for a closer look

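The knockout difference of Cyp2c29 had opposite signs in the 2 sexes, as had those of Cyp2c40 and Cyp2c69. For Cyp2c29 the male one was 0.12 ± 0.16, with a 95% interval of -0.27 to 0.50. Both males labelled knockout (7.54 and 7.50) lay above both wild-type males (7.47 and 7.34), and both females labelled knockout (7.58 and 7.18) lay below both wild-type females (7.82 and 8.0). Groups did not overlap for 62.0% of all genes in males and 55.4% in females. The interaction of Cyp2c29, the male difference minus the female one, was 0.65 ± 0.22 (limma, adjusted p = 0.497). In the fits that left out 1 array the interaction ran from 0.45 to 0.85, with adjusted p of 0.363 to 0.720, so the difference between the sexes did not pass.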

How the results depend on the processing

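Cyp2c37, Cyp2c50 and Cyp2c54 kept their direction and their calls in both sexes under every alternative run. The count of members called in males was 5, where 10.7% of all genes were called. It was 3 with no filter on dim probes (2.69% of all), without Cyp2c55 and Cyp2c69. It was 4 with the replicate block (9.28%), quantile (10.4%) or median scaling (9.57%), the mean of a gene's probes or every probe on its own (10.4% for both, the last over the probes that stand for genes), each without Cyp2c69. It was 6 with the male arrays alone (8.08%, with Cyp2c40), and 7 with normexp (12.1%) or trend and robust moderation (13.2%), both with Cyp2c40 and Cyp2c70. With 1 array left out it was 3 to 6 (3.99% to 10.6% of all). In females the count was 4, where 5.93% of all genes were called. It was 3 with no filter (1.14%) or the female arrays alone (1.39%), both without Cyp2c55, and 5 with trend and robust moderation (9.53%, with Cyp2c29). With normexp it was 4, where 9.99% of all were called, and with 1 array left out 3 to 4 (2.05% to 6.18% of all). Between the sexes in wild type, normexp called 1 member (Cyp2c40) where the count was 0, and leaving out 1 array gave 0 to 1 (Cyp2c37, without female wild-type replicate 2). The other sex comparison and the interaction stayed at 0 members called. The causes of these changes were not tested.

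The replicate numbers were not taken as pairing the samples: deviations from the group means of same-numbered arrays correlated at 0.102 for the 2 female groups and 0.0485 for the 2 male groups. With the block, Cyp2c69 in males was lost (adjusted p = 0.0796).

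Differences that turned their sign were never called. Averaging the probes of Cyp2c55 gave an interaction of -0.125 and male minus female differences of 0.0801 (wild type) and -0.0445 (labelled knockout), and normexp gave -0.0123 for the last of these. With 1 array left out, the knockout difference in females ran from -0.711 to 0.0723 for Cyp2c40 and from -0.69 to 0.28 for Cyp2c69. The male minus female difference in the arrays labelled knockout ran from -0.0574 to 0.339 for Cyp2c29, -0.0942 to 0.11 for Cyp2c38, -0.16 to 0.60 for Cyp2c40, -0.0114 to 0.50 for Cyp2c50, -0.0343 to 0.31 for Cyp2c54, -0.0281 to 0.15 for Cyp2c55 and -0.16 to 0.66 for Cyp2c69. In wild type it ran from -0.27 to 0.0562 for Cyp2c38 and -0.57 to 0.17 for Cyp2c55. The interaction ran from -0.0489 to 0.28 for Cyp2c38 and -0.11 to 0.63 for Cyp2c55.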

Other observations

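Cyp2c53-ps, a transcribed pseudogene on chromosome 19, was looked at after its values were seen. It had -3.76 and -3.91 in males labelled knockout against -1.48 and -1.87 in male wild type (-2.16 ± 0.30, 4.46-fold lower, limma, adjusted p = 0.0103). In females it had -5.19 and -4.39 in the arrays labelled knockout, where no array was well above background, against -3.11 and -2.71 in wild type (at least 2.72-fold lower, adjusted p = 0.0229). The male call was lost without either male array labelled knockout (adjusted p up to 0.0624). The female call was lost without female knockout replicate 1, female wild-type replicate 2 or either male array labelled knockout (up to 0.0788). It was also lost with no filter on dim probes (0.0683), with the female arrays alone (0.100) and with normexp (-0.25, adjusted p = 0.108).

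Of the other Cyp2c genes, Cyp2c23 did not pass in males (-0.65 ± 0.30, adjusted p = 0.228) or females (-0.16 ± 0.30, adjusted p = 0.772), and neither did Cyp2c66 (-0.25 ± 0.16 and 0.48 ± 0.16, adjusted p = 0.372 and 0.139). Cyp2c65 was well above background on 3 of 8 arrays and was not tested.

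Over the 8 arrays, the gene outside the family whose levels were most like those of Cyp2c37 was Srsf4 (Pearson r = 0.997), that of Cyp2c50 was Lsm1 (0.992), that of Cyp2c54 was Xylb (0.997), that of Cyp2c55 was Cyth2 (0.994) and that of Cyp2c69 was 1810030O07Rik (0.974). Each is the highest of 15471 candidates, and the 8 arrays share the 4 groups, so these values describe the layout of the groups.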
